A study of Mus musculus with 8 samples.

Results

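The genes described here are the Fc gamma receptors of the mouse, their shared signalling chain and a related Fc receptor-like gene. They are Fcgr1, Fcgr2b, Fcgr3, Fcgr4, Fcer1g and Fcrls, taken by name, and these 6 rows stand among 56832 genes in the deposited table. All 6 passed the filter on low values, a mean over the 8 libraries of 10 normalized counts or more, which 14428 genes passed in all. They were measured by RNA-seq of microglia, the resident macrophages of the brain, sorted by fluorescence from male young adult 5xFAD mice. Both groups carry the 5xFAD transgenes, which make mutant human amyloid precursor protein and presenilin in neurons, so that amyloid plaques form, and no group without them is compared here. The ethanol group (4 libraries) received 3 g/kg of ethanol as a 20% solution by intraperitoneal injection on 5 days a week for 4 weeks, followed by 2 weeks of withdrawal. The saline group (4 libraries) received saline on the same schedule. The labels do not tie each library to an animal of its own. The p-values therefore weigh group differences against the variation between these libraries, which may in part be technical. Ages beyond young adult, the strain background and the marker used for the sort are not known from the labels.

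Fc gamma receptors are cell-surface proteins that bind the constant (Fc) part of immunoglobulin G, the main antibody of blood. Fcgr1, Fcgr3 and Fcgr4 encode activating receptors, which lack a signalling motif of their own and pass the signal through the chain encoded by Fcer1g, whose tyrosine motif recruits the kinase Syk and starts uptake of the antibody-coated particle. Fcgr2b encodes the inhibitory receptor, whose tail recruits the phosphatase encoded by Inpp5d and dampens that signal. Fcrls encodes a scavenger-type protein with immunoglobulin domains that is widely used as a marker of microglia, and it is not known as an antibody receptor. In Alzheimer's disease research these receptors are followed because they mediate uptake of amyloid bound by antibodies.

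Microglial transcripts were abundant in every library. The 8 microglial markers, among them P2ry12 and Csf1r, summed to between 672313 and 744141 normalized counts in saline and between 713120 and 751067 in ethanol libraries. Depth was 14271351 to 17231301 assigned reads per library, and the 6 Fc receptor genes held 0.603% to 0.641% of them in saline and 0.613% to 0.644% in ethanol libraries. The B cell list summed to 7793 to 9619 normalized counts, nearly all from Ighm (7219 to 8596) and Cd79b (563 to 1033), while Ms4a1 and Pax5 were at 0 in every library. The 9 natural killer and mast cell markers summed to at most 62.8, with Mcpt4 and Tpsb2 at 0 in every library. The part of these cells in the results was not tested. These data are from bulk RNA, in which fewer cells of a type and less RNA per cell cannot be told apart.

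Fcgr2b and Fcgr3 are a case where the sequence bears on the count. Their transcripts hold an identical stretch of 129 bases within the coding part, at bases 402 to 530 of the longest coding Fcgr2b transcript (3544 bases) and 313 to 441 of that of Fcgr3 (1347 bases) in GENCODE M21 (GRCm38). It is the longest run that any pair of the 6 genes shares, and it is shown because reads that lie wholly inside it fit both genes.
Shared stretch: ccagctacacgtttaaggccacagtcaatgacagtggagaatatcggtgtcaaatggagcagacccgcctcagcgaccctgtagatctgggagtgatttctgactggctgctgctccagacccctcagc

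Identical words of 50 bases covered 23.2% of this Fcgr3 transcript and 8.83% of the Fcgr2b transcript. The reads were 150 nt long and paired, and no shared run reaches 150 bases, so only a read shorter than that could lie wholly inside one. How the submitters' counting treated reads that fit both genes is not given, so the values of Fcgr2b and Fcgr3 are uncertain to that extent. No other pair of the 6 genes shared a word of 50 bases.

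Promoter sequences were searched for the word GAGGAA on either strand, the core of the purine-rich site bound by PU.1, a transcription factor that macrophages and microglia depend on. This was 1 of several related words looked at. It occurred in the 250 bases before a start site of 4 of the 6 genes, namely Fcgr1, Fcgr3, Fcgr4 and Fcrls, and in 23.3% of the 32851 promoter windows in the RefSeq table (GRCm38.p6). A gene can have more than 1 window, as Fcgr3 does, so a share of genes and a share of windows are not directly comparable. The last 150 bases before the start are shown for these 4 genes to display where the word lies, with the match in capitals (TTCCTC where it is read on the opposite strand). A match is a description of the letters and not evidence of binding.
Fcgr1, chr3:96293970-96294119, minus strand: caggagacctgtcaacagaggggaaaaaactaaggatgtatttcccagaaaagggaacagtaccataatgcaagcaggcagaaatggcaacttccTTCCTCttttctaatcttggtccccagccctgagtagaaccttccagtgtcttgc
Fcgr3, chr1:171059404-171059553, minus strand: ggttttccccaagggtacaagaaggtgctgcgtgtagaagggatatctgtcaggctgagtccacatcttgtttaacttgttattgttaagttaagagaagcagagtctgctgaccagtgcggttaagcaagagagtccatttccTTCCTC
Fcgr4, chr1:171018776-171018925, plus strand: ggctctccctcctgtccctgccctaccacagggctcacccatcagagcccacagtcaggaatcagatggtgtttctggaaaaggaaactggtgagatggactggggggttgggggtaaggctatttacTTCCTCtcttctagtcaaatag
Fcrls, chr3:87263525-87263674, minus strand: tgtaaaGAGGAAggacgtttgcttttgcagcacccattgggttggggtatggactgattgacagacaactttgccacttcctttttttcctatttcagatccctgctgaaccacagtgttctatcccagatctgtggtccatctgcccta

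The match began 55 bases before the start in Fcgr1, 6 in Fcgr3, 22 in Fcgr4 and 144 in Fcrls. It lay on the strand opposite to that of the transcript in the 3 receptor genes and on the same strand as the transcript in Fcrls. The windows of Fcgr2b and Fcer1g did not hold these letters. The 4 genes with the word include the most and the least abundant of the receptors.

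Microglia held far more Fcgr3 than Fcgr4 transcript. Levels of different genes are compared here as normalized counts per kb of exon, with exon lengths from GENCODE M21. In saline libraries Fcgr3 had 19883 ± 1519 normalized counts per kb (SD, n = 4), Fcer1g 16844 ± 1104 and Fcrls 16629 ± 159. On the same scale Fcgr1 had 1699 ± 197, Fcgr2b 777 ± 28.3 and Fcgr4 109 ± 7.48. Fcgr3 was thus 25.6 times as high as Fcgr2b and 183 times as high as Fcgr4 per kb. The order among the lower 3 genes was the same in every library, with no overlap between neighbours. Among the upper 3 on this scale, Fcer1g and Fcrls overlapped in both groups, with 15956 to 18290 and 16403 to 16749 per kb in saline, and Fcgr3, at 18103 to 21743, overlapped Fcer1g in saline. In ethanol the values of Fcgr3 did not overlap those of the other 5 genes. Within each single library of either group, Fcgr3 lay above the other 5 genes.

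**Figure D1:**
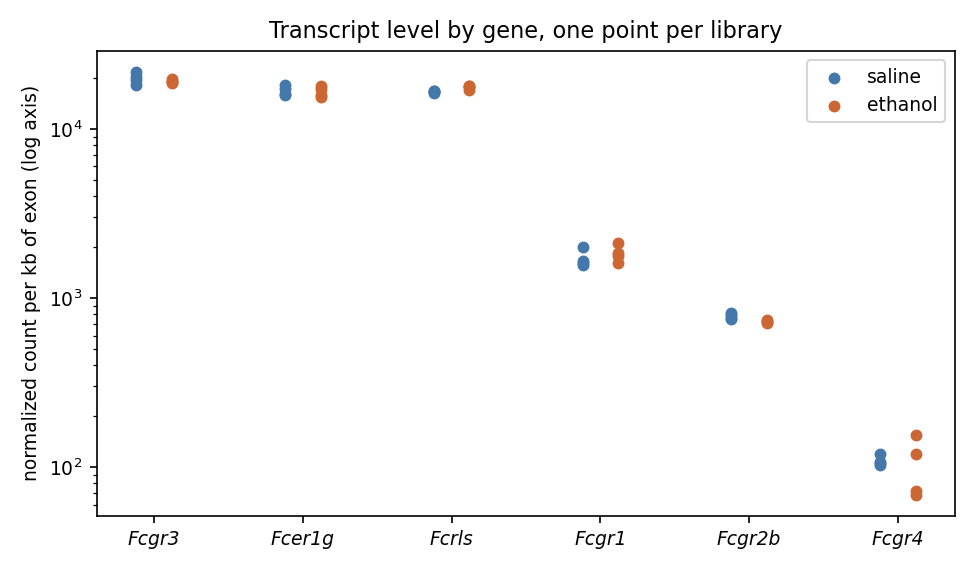
Level of each Fc receptor gene as normalized counts per kb of exon on a log axis, with a point for each of the 4 saline (blue) and 4 ethanol (orange) libraries. Fcgr3, Fcer1g and Fcrls lie close together at the top, Fcgr1 and Fcgr2b lie lower, and Fcgr4 is lowest, at 68.8 to 155 per kb.

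The ethanol libraries had the same order at the lower end, with Fcgr1 at 1826 ± 206 per kb, Fcgr2b at 725 ± 16.3 and Fcgr4 at 104 ± 41.0 (SD, n = 4). At the upper end Fcgr3 was at 19187 ± 398, Fcrls at 17643 ± 442 and Fcer1g at 16620 ± 1149. The order of the Fcrls and Fcer1g means thus differed from that in saline, with overlapping values in both groups. By counts alone, Fcrls ranked at place 30 and Fcgr3 at place 36 of all genes in the table, and Fcgr4 at place 9257. The relation of Fcer1g to Fcrls depended on the length used. With the longest coding transcript of each gene in place of all exons, a choice added after seeing the data, Fcer1g was above Fcrls in both groups without overlap, at 20418 to 23405 against 16843 to 17199 per kb in saline and at 19719 to 22840 against 17456 to 18465 in ethanol. On that scale Fcgr3 had 25625, Fcgr2b 1269 and Fcgr4 109 per kb in saline, so the ratios of Fcgr3 to the other receptors depended on the length as well. The place of Fcgr2b between Fcgr1 and Fcgr4 was the same.

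Ethanol was compared with saline to ask whether repeated exposure altered the microglial transcriptome. None of the 6 Fc receptor genes was called in limma, with a Benjamini-Hochberg adjusted p of 0.997 for each, against 0.00% of all 14428 genes called. At an unadjusted p under 0.05 there were 0 of the 6 in limma, in edgeR and in DESeq2, and of all genes 524, 495 and 556. Fcgr1 and Fcrls had positive and the other 4 genes negative log2 fold changes, with a median of -0.034 over the 6 genes and of -0.0054 over all genes tested. The groups did not overlap in 2 of the 6 genes. Fcrls was higher in every ethanol library, as were 1.12% of all genes tested, and Fcgr2b was lower in every ethanol library, as were 1.20%.

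**Figure D2:**
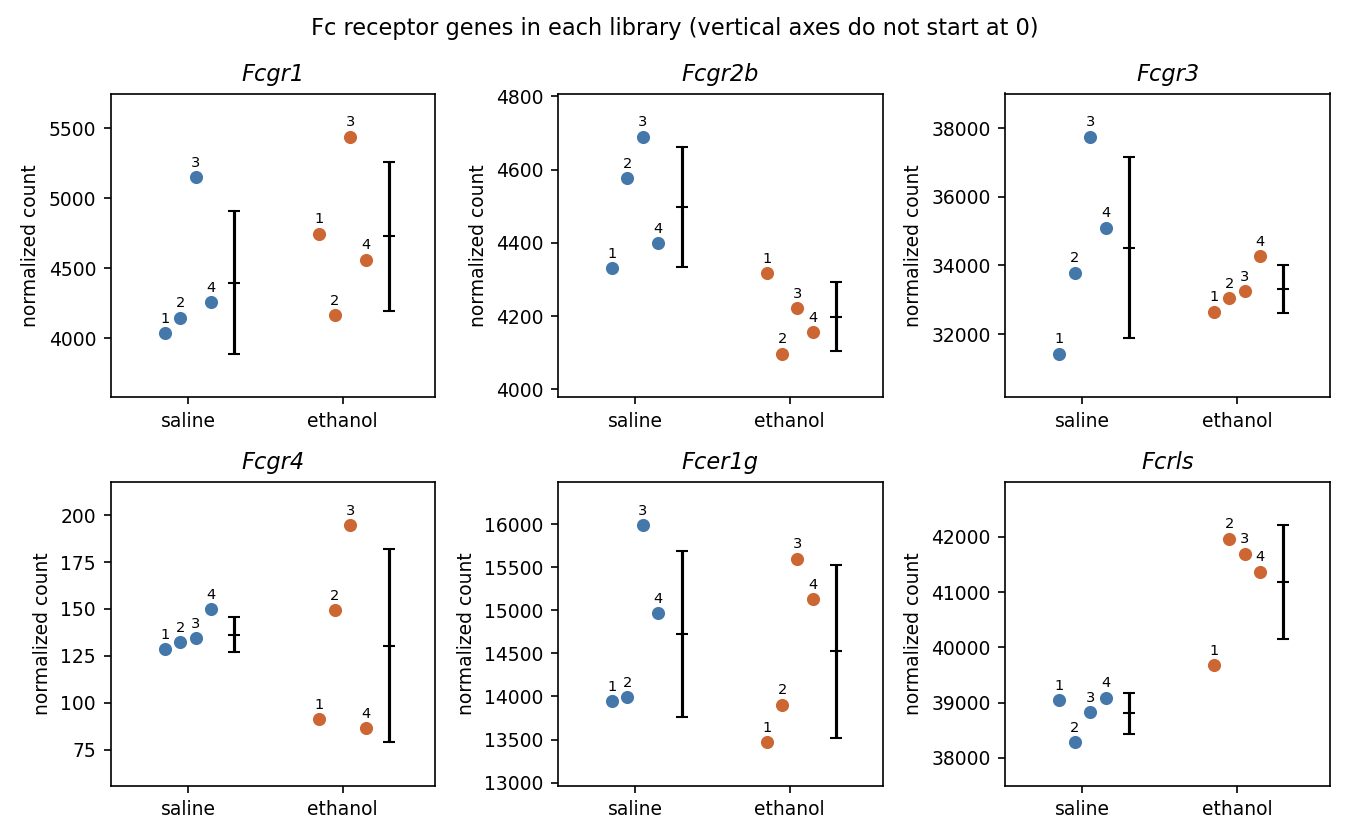
Normalized counts of the 6 genes in each library, numbered by sample, with the mean and SD of each group beside the points and axes that do not start at 0. The groups are apart in Fcgr2b, from 4097 to 4317 in ethanol and from 4331 to 4689 in saline, and in Fcrls, and they overlap in the other 4 genes.

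Among the activating receptors, Fcgr1, the receptor with high affinity for immunoglobulin G and a gene induced by interferon, had 4037, 4148, 5150 and 4259 normalized counts in saline libraries 1 to 4. It had 4747, 4166, 5439 and 4560 in ethanol libraries 1 to 4. Sample 3 was the highest of its group in both groups, and the groups overlapped. The fold change was 1.07, with a 95% interval of 0.939 to 1.23 (limma adjusted p = 0.997). Single libraries moved the log2 fold change of 0.10 by more than 1.5 times: it was 0.18 without saline 3, 0.16 without ethanol 2, 0.065 without saline 1 and 0.035 without ethanol 3.

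Fcgr3, the activating receptor with the most transcript here, had 31427, 33789, 37745 and 35105 normalized counts in saline libraries 1 to 4 and 32658, 33050, 33252 and 34277 in ethanol libraries 1 to 4. All 4 ethanol values lay within the range of the saline values. The fold change was 0.967 (95% interval 0.888 to 1.05; limma adjusted p = 0.997). The saline group spread more widely, with an SD of 2636 against 691 in ethanol, and this difference in spread was not tested. The log2 fold change of -0.048 was -0.092 without saline 1, -0.0044 without saline 3 and -0.0086 under quantile normalization.

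Fcgr4, a receptor of intermediate affinity that is prominent on monocytes and neutrophils, was scarce, with 84 to 194 reads per library. Its normalized counts were 129, 132, 135 and 150 in saline libraries 1 to 4. In ethanol libraries 1 to 4 they were 91.3, 149, 195 and 86.4, so that 2 ethanol libraries lay below all saline libraries and 1 lay above them. The fold change was 0.905, with a wide 95% interval of 0.618 to 1.33 (limma adjusted p = 0.997). The SD was 9.39 in saline and 51.4 in ethanol. The log2 fold change of -0.14 was -0.36 without ethanol 3, -0.24 without ethanol 2, -0.00073 without ethanol 1 and 0.025 without ethanol 4, and edgeR on the recovered reads gave -0.057 and DESeq2 -0.063. The 95% exact Poisson intervals, which cover counting error only, were 168 to 224 in ethanol 3 and 68.9 to 107 in ethanol 4, and these intervals do not overlap.

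Neutrophil and monocyte markers are given beside Fcgr4 because those cells carry the receptor. All 10 neutrophil markers had a mean of at least 10, and their sum ran from 2807 to 14424 normalized counts in saline and from 2568 to 10978 in ethanol libraries. In ethanol libraries 1 to 4 the neutrophil sums were 2568, 4274, 5748 and 10978, beside the Fcgr4 values of 91.3, 149, 195 and 86.4. Both were higher in ethanol 3 than in ethanol 2 and higher in ethanol 2 than in ethanol 1, while ethanol 4 had the highest neutrophil sum and the lowest Fcgr4 value. In saline libraries 1 to 4 the neutrophil sums were 14424, 3016, 8045 and 2807, beside Fcgr4 values of 129, 132, 135 and 150. The 6 monocyte markers summed to between 352 and 1120 in saline and between 358 and 760 in ethanol libraries. No marker of either list was at 0 in all libraries, and the part of these cells in the Fcgr4 values was not tested.

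Fcer1g, the shared chain of the activating receptors, had 13946, 13992, 15986 and 14965 normalized counts in saline libraries 1 to 4. It had 13468, 13905, 15600 and 15132 in ethanol libraries 1 to 4. In both groups samples 3 and 4 were higher than samples 1 and 2, and the groups overlapped. The fold change was 0.986 (95% interval 0.896 to 1.09; limma adjusted p = 0.997), the closest to 1 of the 6 genes. The log2 fold change of -0.020 changed sign without saline 3 (0.021), without ethanol 1 (0.016) and without ethanol 2 (0.00053). It was -0.055 without ethanol 3, -0.045 without saline 1, -0.043 without saline 2, -0.040 without ethanol 4 and -0.011 without saline 4.

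Fcgr2b, the inhibitory receptor, was lower in each of the 4 ethanol libraries than in each of the 4 saline libraries. Its normalized counts were 4331, 4576, 4689 and 4399 in saline libraries 1 to 4 and 4317, 4097, 4222 and 4156 in ethanol libraries 1 to 4. The highest ethanol value was only 0.326% below the lowest saline value, beside an SD of 164 in saline and 94.2 in ethanol. Under TMM scaling, given as CPM, reads were scaled to the library total over the tested genes after the TMM adjustment. The groups overlapped there, at 262 to 277 CPM in ethanol and 276 to 301 CPM in saline. They overlapped under quantile normalization as well. Under scaling by assigned reads alone, added after seeing the data, they were apart by 0.933%. The fold change was 0.933 (95% interval 0.849 to 1.03; limma adjusted p = 0.997). The log2 fold change was -0.099, and it ran from -0.12 to -0.079 over the 19 alternatives.

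Fcrls, the microglial marker, had 39043, 38284, 38824 and 39093 normalized counts in saline libraries 1 to 4. In ethanol libraries 1 to 4 it had 39677, 41971, 41694 and 41375, each above every saline value. Ethanol 1 was the closest to the saline group, 1.49% above the highest saline library. The fold change was 1.06 (95% interval 0.990 to 1.14; limma adjusted p = 0.997). The groups overlapped under quantile normalization, at 36620 to 39669 in saline and 38854 to 41066 in ethanol, where the log2 fold change was 0.046 against 0.085 as reported. They were apart under TMM scaling and under scaling by assigned reads alone. The summed microglial markers, which do not include Fcrls, were lowest in saline 1 and saline 2, at 672313 and 680046, and the other 6 libraries had 706241 to 751067. Their part in the Fcrls difference was not tested.

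**Figure D3:**
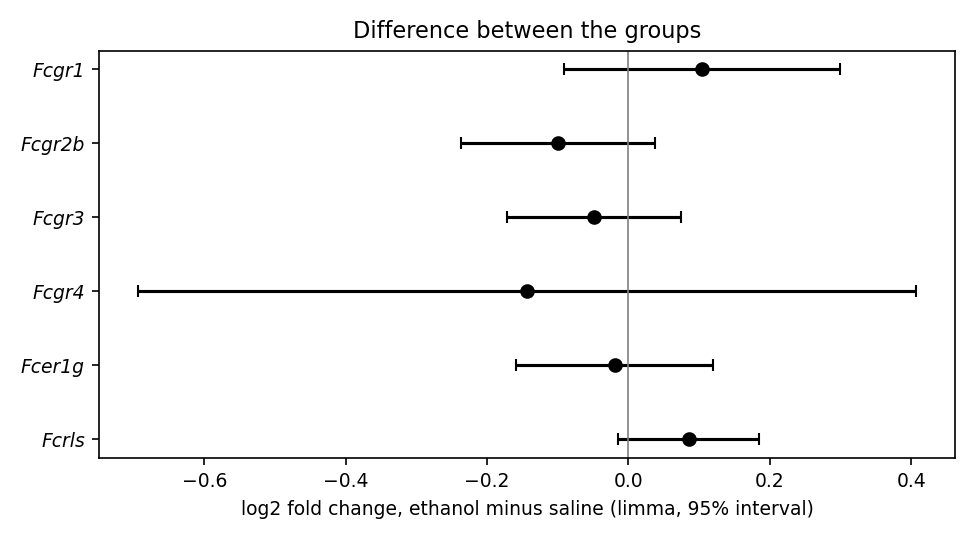
Log2 fold change of ethanol against saline for each gene from limma, with 95% intervals; the vertical line marks no difference. All 6 intervals include 0, and that of Fcgr4, at -0.69 to 0.41, is the widest.

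The balance of the inhibitory receptor against the activating ones was taken as the difference of log2(normalized count + 1) within a library, which does not depend on how libraries are scaled. The ratio of Fcgr2b to Fcgr1 was 0.10, 0.14, -0.14 and 0.047 in saline libraries 1 to 4 and -0.14, -0.024, -0.37 and -0.13 in ethanol libraries 1 to 4. All 4 ethanol values lay below the saline mean of 0.039, and 2 lay below every saline value. The difference of -0.20, a fold of 0.868, did not pass (exact permutation test, two-sided, p = 0.0857, adjusted p = 0.514 for the 6 ratios compared). With 70 ways of arranging the libraries, the smallest p this exact test allows is 0.0286. After adjustment for the 6 ratios, a single ratio at that p would still not fall under 0.05. The test therefore cannot decide whether a single ratio differed.

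The other 5 ratios likewise did not pass. Fcgr2b to Fcgr3 differed by -0.051 (exact permutation p = 0.257, adjusted p = 0.514) and Fcgr2b to Fcgr4 by 0.044 (exact permutation p = 0.83, adjusted p = 0.83). The common chain against its receptors gave -0.12 for Fcer1g to Fcgr1 (exact permutation p = 0.171, adjusted p = 0.514), where all 4 ethanol values lay below the saline mean. For Fcer1g to Fcgr3 the difference was 0.029 and for Fcer1g to Fcgr4 it was 0.12, with an exact permutation p of 0.657 and an adjusted p of 0.789 for each. The sign of the Fcgr2b to Fcgr4 difference turned without saline 4 (-0.013), ethanol 1 (-0.11) or ethanol 4 (-0.12), that of Fcer1g to Fcgr3 without ethanol 3 (-0.0071) and that of Fcer1g to Fcgr4 without ethanol 4 (-0.065). The Fcgr2b to Fcgr3 difference was -0.025 without saline 1, -0.033 without saline 2 and -0.032 without ethanol 4.

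Across libraries the genes differed in how steady they were. The SD of log2(normalized count + 1) over the 8 libraries was 0.052 for Fcrls, 0.067 for Fcgr2b, 0.079 for Fcgr3, 0.090 for Fcer1g, 0.16 for Fcgr1 and 0.38 for Fcgr4. For the 154 genes whose mean was 10000 or more the median was 0.082, and Fcrls, Fcgr3 and Fcer1g belong to this class. Over the 3296 genes from 1000 to 10000 it was 0.13, with Fcgr2b below and Fcgr1 above it. Over the 6338 genes from 100 to 1000 it was 0.22, below the value of Fcgr4.

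**Figure D4:**
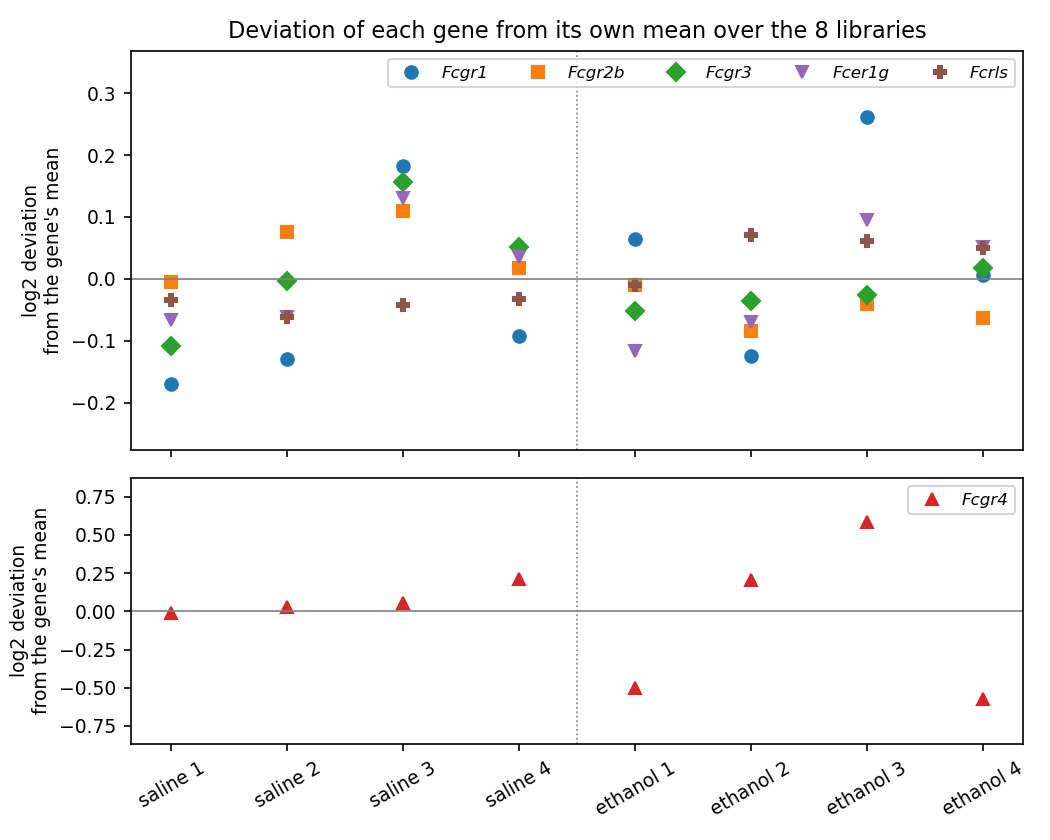
Log2 deviation of each gene from its own mean in each library, with Fcgr4 in a panel of its own because its axis is wider. In saline 3 the 4 genes Fcgr1, Fcgr2b, Fcgr3 and Fcer1g all lie high, at 0.11 to 0.18, while Fcrls is at -0.042.

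Saline 3 had the highest value of all 8 libraries for Fcgr2b, Fcgr3 and Fcer1g and the second-highest for Fcgr1. Ethanol 3 had the highest value of Fcgr1 and Fcgr4 and the second-highest of Fcer1g and Fcrls. Likeness between genes was measured as the SD, over the 8 libraries, of the log2 ratio between them, so that a small value means that the ratio hardly varied. Among the 6 genes the steadiest ratio was that of Fcgr3 to its chain Fcer1g, at 0.063, followed by Fcgr2b to Fcgr3 at 0.067. The SDs of Fcgr3, Fcer1g and Fcgr2b by themselves were 0.079, 0.090 and 0.067. Ratios with Fcgr4 were the least steady, at 0.36 to 0.38, beside an SD of 0.38 for Fcgr4 by itself.

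Genes outside the family came closer still, among 9875 genes with a mean of at least 50. The median SD of the log2 ratio over these genes ran from 0.196 for Fcrls to 0.430 for Fcgr4. For Fcrls the most alike were Rab31 (SD of the log2 ratio 0.025), Shisa5 (0.030) and Slc29a3 (0.034). For Fcgr2b they were Ccm2 (0.031), Sat1 (0.032) and Vps37c (0.034), and for Fcgr3 Psme2 (0.036), Hnrnpf (0.039) and Pias1 (0.042). Fcer1g was most like Itm2b (0.036), Sdhd (0.037) and C1qc (0.037), the last of which encodes a chain of complement C1q. Fcgr1 was most like Alox5ap (0.048), Cript (0.052) and Clpp (0.059), and Fcgr4 was most like Comp (0.16), Ccl3 (0.18) and Dtwd1 (0.18). These are the smallest of many values over 8 libraries that also share their scaling, and they describe these libraries only.

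Genes that carry the activating signal inside the cell did not differ past the threshold. Of 40 listed genes 38 were tested, 19 had positive and 19 negative log2 fold changes, the median was 5.6e-05, and 0 were called higher or lower in limma, edgeR or DESeq2, with 0 at an unadjusted p under 0.05 in each. Syk, the kinase that docks on the chain, averaged 3200 ± 263 (saline) and 3230 ± 221 (ethanol) normalized counts (SD, 4 libraries a group), and its fold was 1.01 (95% limits 0.897 and 1.14). Lyn, a Src-family kinase gene whose product phosphorylates the chain, had a fold of 1.02 (0.929 to 1.11). Folds were 1.02 for Plcg2, the phospholipase that raises calcium (0.922 to 1.13), and 1.01 for Btk, a kinase acting upstream of it (0.896 to 1.15).

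Tyrobp, which encodes a second adaptor with the same kind of tyrosine motif as Fcer1g, averaged 18885 ± 2784 (saline) and 17890 ± 1803 (ethanol), and its fold was 0.951 (0.832 to 1.09). The smallest unadjusted p among the higher genes of the list was that of Gab2, a docking protein, with a fold of 1.15 (0.973 to 1.35), and among the lower genes that of Tec, a kinase related to Btk, with 0.840 (0.694 to 1.02). Dock2, an activator of the GTPase Rac, was the gene of this list whose groups did not overlap, at 5050 to 5383 in saline and 5438 to 5909 in ethanol, and it was named after its values were seen. It was 1 of 38 genes, and over all genes tested 1.12% were higher in every ethanol library. Its fold was 1.07 (0.979 to 1.18). Each gene named from this list had a limma adjusted p of 0.997.

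**Figure D5:**
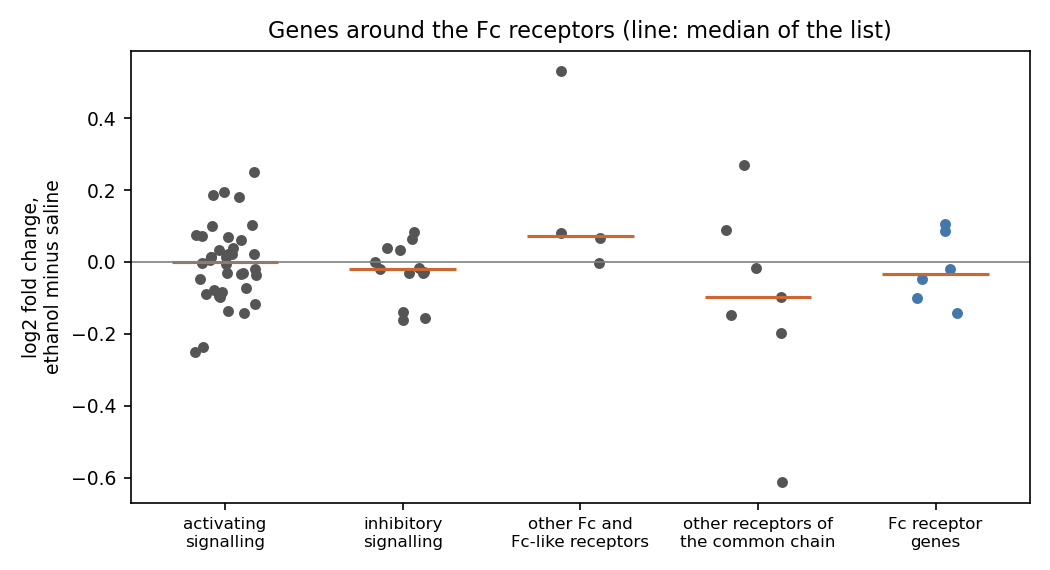
Log2 fold change of ethanol against saline for every tested gene of 4 lists around the Fc receptors and for the 6 Fc receptor genes, with a point per gene and the median of each list as a line. The medians lie between -0.099 and 0.073, and the points farthest out are Cd300ld (named after its values were seen) at -0.61 and Fcrlb at 0.53, with saline means of 38.1 and 18.7 normalized counts. The Cd300ld mean was higher in ethanol, at 52.0 ± 68.0 with values from 5.01 to 150, so its sign depends on the log scale.

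No gene of the inhibitory arm passed the threshold. Of the 14 listed, 13 were tested, 5 had positive and 8 negative log2 fold changes, the median was -0.020 and 0 were called in limma, edgeR or DESeq2. Inpp5d, the lipid phosphatase that Fcgr2b recruits, averaged 16554 ± 745 (saline) and 16955 ± 1115 (ethanol), and its fold was 1.02 (0.936 to 1.12). The fold was 1.05 for the phosphatase gene Ptpn6 (0.951 to 1.15) and 0.979 for the adaptor gene Dok1 (0.862 to 1.11). Pag1, a membrane adaptor that holds the inhibitory kinase Csk near Src-family kinases, averaged 5234 ± 210 (saline) and 4687 ± 413 (ethanol), and its fold was 0.893 (0.800 to 0.997; limma adjusted p = 0.997). It was the 1 gene of the list with an unadjusted p under 0.05 in limma and in DESeq2, and edgeR gave 0, where 524, 556 and 495 of all 14428 genes had one in limma, DESeq2 and edgeR. On the higher side the smallest unadjusted p was that of Ubash3b, a phosphatase that acts on Syk, with a fold of 1.06 (0.949 to 1.18).

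Other receptors of antibody Fc parts and Fc receptor-like genes were mostly below the minimum, and 4 of 13 were tested. None was called in limma, edgeR or DESeq2, 0 had an unadjusted p under 0.05 in any of them, and 3 had positive and 1 a negative log2 fold change, with a median of 0.073. Fcgrt, the neonatal Fc receptor that recycles immunoglobulin G, averaged 2352 ± 265 (saline) and 2345 ± 258 (ethanol), and its fold of 0.997 (0.863 to 1.15) was the negative one. Trim21, a cytosolic antibody receptor, had a fold of 1.06 (0.880 to 1.27). Fcrlb, on the higher side, was near the minimum at 18.7 ± 7.84 and 26.5 ± 8.78, with a fold of 1.44 (0.692 to 3.02).

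Receptors other than Fc gamma receptors that pair with the common chain had 7 of 20 genes tested, 2 positive and 5 negative, with a median log2 fold change of -0.099. None was called in limma, edgeR or DESeq2, and 0 had an unadjusted p under 0.05 in any of them. Cd300c2, an activating receptor of the CD300 family, averaged 4390 ± 325 (saline) and 4101 ± 324 (ethanol), and its fold was 0.934 (0.832 to 1.05). Csf2rb, the shared beta chain of cytokine receptors, averaged 1592 ± 90.9 (saline) and 1690 ± 22.7 (ethanol), and its fold was 1.06 (0.943 to 1.20). Its groups were narrowly apart, at 1463 to 1664 in saline and 1671 to 1717 in ethanol. It was higher in every ethanol library, as 1 of 7 genes, against 1.12% of all genes tested. For all 14428 genes tested, 7046 had positive and 7382 negative log2 fold changes.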

How the data were processed

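The tools listed per the submitters' processing notes are STAR 2.7.9a, Salmon 1.5.2, featureCounts 2.0.1 (Subread), bcl2fastq 2.19.1, R 4.2.2 and DESeq2, and the build is GRCm39. The sources used here do not give their roles, settings or annotation. Per the labels' protocols, 500 pg of total RNA was amplified per library. The authors deposited 1 table of signal values, which its name calls DESeq2-normalized counts. All non-zero values (100%) were whole multiples of the library's smallest value within 1e-06, so whole reads were recovered.

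Values were tested over all 14428 genes with a mean of at least 10 on the log2(value + 1) scale by limma 3.58.1 under R 4.3.3 (variance trend, Benjamini-Hochberg threshold 0.05). The fit was checked on simulated data. Fold changes and their 95% intervals are on this scale, where they depend on the added value for scarce genes. The log2 fold change of Fcgr4 was -0.144 with 0.5 added and -0.137 with 5 added. It was not understated against the count tests, which gave -0.057 (edgeR) and -0.063 (DESeq2). edgeR 4.0.16 and DESeq2 1.42.0 were run on the recovered reads. The labels' protocols name no molecular identifiers, so counting intervals cover counting error only, and no strand-marking step, so reads of overlapping antisense genes cannot be told apart.

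Groups came from the sample titles, and library columns from the library names. The genes and lists were chosen with earlier results of these data known. Named list genes were 11 preset genes and the smallest unadjusted p in each direction per list; others are marked, and some preset items are not reported here. Likeness used genes with a mean of at least 50 and left out numbered gene models. Alternatives covered pseudocounts, filters, scaling, variance model, terms for sample number, library-name number and samples 1 and 2, and leaving out each library. Exon lengths (GENCODE M21, on GRCm38 and not GRCm39) matched 95.0% of tested genes by symbol. Protein sequences were not used here.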

Additional observations from a re-analysis of the deposited data

Results flagged for a closer look

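Among 68 groups of 4 libraries examined for the Fc receptor genes, their ratios and the named genes around them, 2 had a library far from the others, where chance gives about 1 group in 20. Dok1, an adaptor of inhibitory signalling, had 1876 normalized counts in ethanol 3, while the other 3 ethanol libraries had 2197 to 2248. Ptpn6, a phosphatase of inhibitory signalling, had 6810 in saline 2, while the other 3 saline libraries had 6174 to 6265. None of the 6 Fc receptor genes had such a library.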

How the results depend on the processing

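Under 19 alternatives 0 genes were called, and of 114 values of the 6 genes 109 kept their direction and 0 passed the threshold, with a smallest adjusted p of 0.917. The log2 fold change of Fcer1g turned to 0.0031 with the library-name number as a term, and ran from -0.055 to 0.021 when each library was left out. That of Fcgr4 ran from -0.36 (without ethanol 3) to 0.025 (without ethanol 4). Of 66 ratio values 61 kept their direction and 0 passed. With same-numbered libraries as pairs the exact test allows no p under 0.125, so no ratio could pass there. In the other settings a single ratio at the smallest exact p would not pass after adjustment. Leaving out each library gave -0.12 to 0.26 for Fcgr2b to Fcgr4, -0.0071 to 0.055 for Fcer1g to Fcgr3 and -0.065 to 0.31 for Fcer1g to Fcgr4. The log2 gap between the nearest libraries of the groups was 0.0047 for Fcgr2b and turned to -0.0010 under TMM and -0.0063 under quantile normalization, and for Fcrls it was 0.021 and turned to -0.030 under quantile normalization. With transcript in place of exon lengths, the log2 ratio of Fcrls to Fcer1g per kb in ethanol turned from 0.086 to -0.23. Same-numbered saline and ethanol libraries of samples 2, 3 and 4 also share the number in the library name, and those of sample 1 do not. The library-name number of sample 3 occurs in no other sample. Deviations of same-numbered libraries correlated at 0.014 to 0.080, and those of differently numbered libraries at -0.105 to 0.137. With the sample number as a replicate block 0 genes were called, and the log2 fold change of Fcrls was 0.085. With samples 1 and 2 against 3 and 4 as a term Fcrls had a limma p of 0.0436 and an adjusted p of 0.991. The causes were not tested. With 84 to 194 reads a library, Fcgr4 has the least precise counts of the 6 genes.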

Other observations

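Fcrl1, an Fc receptor-like gene best known from B cells, had 2115 to 2259 normalized counts in saline and 2185 to 2416 in ethanol libraries, although Ms4a1 and Pax5 were at 0 in every library. Ighm and Cd79b of the B cell list were present, at the levels given above, while Cd79a had at most 11.9. The fold of Fcrl1 was 1.05 (limma 95% interval 0.936 to 1.17), and the gene was named after its values were seen. In the RefSeq table (GRCm38.p6) Fcrl1 and Fcrls lie on the same chromosome with Cd5l between them. Whether microglia made the Fcrl1 reads was not tested.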
